A study of Rattus norvegicus with 6 samples.

Results

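The subunits of the BAF chromatin remodeling complex that are exchanged when a neural progenitor becomes a neuron, together with the 2 ATPases of the complex, were followed in rat neural stem/progenitor cells (NSPCs) on carbon films of different electrical conductivity. The 10 genes were taken by symbol, as Smarca4, Smarca2, Actl6a, Actl6b, Phf10, Dpf1, Dpf2, Dpf3, Ss18 and Ss18l1, and each was found in 1 of the 17048 rows of every count table. The NSPCs were wild type, came from the telencephalon of mid-gestation Sprague-Dawley rat embryos, and were held for 24 h in stemness-maintaining medium with EGF and bFGF on films of carbon nanotube and graphene oxide nanoribbon. All films carried this bilayer and differed in how long the nanotubes had been oxidized, shortest for “High”, longer for “Medium” and longest for “Low”, in the order of falling conductivity, so that conductivity and length of oxidation cannot be told apart. In the adhesion assays of the methods, the poly-D-lysine pre-coating was also less concentrated on “Medium” than on “High” and “Low”. The sequencing methods name no coating. Each film had 2 libraries, which makes 6, and neither the labels nor the methods say whether the 2 came from separate cultures or animals, so the p-values measure the spread between libraries, which may be technical.

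BAF complexes use the energy of ATP to move or evict nucleosomes. They are built around 1 of 2 ATPases, Smarca4 (Brg1) or Smarca2 (Brm), on a core that all forms share. In dividing neural progenitors the complex carries the actin-related protein Actl6a (BAF53a), the PHD finger proteins Phf10 (BAF45a) and Dpf2 (BAF45d) and the protein Ss18. When cells leave the cycle and become neurons, these are replaced by Actl6b (BAF53b), Dpf1 (BAF45b), Dpf3 (BAF45c) and Ss18l1 (CREST), a switch that is known for its part in dendrite growth and in keeping neurons out of the cycle.

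RNA was measured by QuantSeq, which reads the 3′ end of poly(A) RNA, so counts do not grow with transcript length. Levels are given as CPM, the counts scaled to library size with edgeR's TMM factors. Between genes, CPM also depends on how well the annotation, which is not given in the sources used here, covers each 3′ end. A count of 0 may therefore come from the annotation as well as from absent RNA, which was not tested. The libraries held 5478066 and 5412882 counts on “High”, 5124863 and 5914540 on “Medium”, and 6213676 and 5460031 on “Low”. A count of 3, taken as the floor below which a gene is not separated from 0, was worth between 0.435 CPM in Low replicate 1 and 0.716 CPM in High replicate 2. Without molecular identifiers, floors and intervals from counts cover counting error alone. Some libraries stood apart. Medium replicate 1 had a count in 5355 rows, the fewest of the 6, against 7809 in Medium replicate 2, and ribosomal RNA took 26.1% and 38.4% of the counts on “High” but between 7.16% and 13.0% in the other 4 libraries. A row with 0 counts in all 6 libraries was common in these tables, 7482 of 17048 rows (43.9%), and rows empty in 1 replicate but with 50 counts or more in its partner were found 1420 times on “High”, 2084 times on “Medium” and 1408 times on “Low”. Among the 10 BAF genes this last pattern was seen for Dpf1, on “High” and on “Low”. In bulk RNA, fewer cells of a type and less RNA per cell cannot be told apart.

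The progenitor forms were detected in every library, and the neuronal forms unevenly. Smarca4, Actl6a, Phf10, Dpf2 and Ss18 had at least 130 counts in each of the 6 libraries, whereas Actl6b and Ss18l1 had 0 counts in each of them and Dpf1 had counts in 2. Dpf3 was under the floor of 3 counts in High replicate 2 and above it in the other 5 libraries, and Smarca2 was at the floor in Medium replicate 1 and above it elsewhere, both at levels that differed widely between replicates of 1 film. Smarca4 was the most abundant of the 10 genes in both “High” libraries, Ss18 in Medium replicate 2 and both “Low” libraries, and Actl6a in Medium replicate 1. Pooled over the 6 libraries, the mean levels were 258 ± 114 CPM for Smarca4 (SD, n = 6), 217 ± 84.2 for Ss18, 121 ± 74.9 for Actl6a, 94.7 ± 28.4 for Dpf2, 79.4 ± 27.5 for Phf10, 40.9 ± 52.5 for Dpf3, 17.9 ± 24.9 for Smarca2 and 4.61 ± 7.41 for Dpf1, with each gene overlapping its neighbor. This order holds the higher Smarca4 of “High”, and within “Medium” and within “Low” the mean of Ss18 was above that of Smarca4. Between the films, 0 of the 8 genes with enough counts to test passed an adjusted p of 0.05 by the quasi-likelihood test of edgeR, for any contrast. For the mean of “Medium” and “Low” against “High” 0.129% of all rows passed. The smallest p was that of Smarca4, which stood lower in all 4 “Medium” and “Low” libraries than in both “High” libraries, with an unadjusted p of 0.0198 for the mean of “Medium” and “Low” against “High”.

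**Figure D1:**
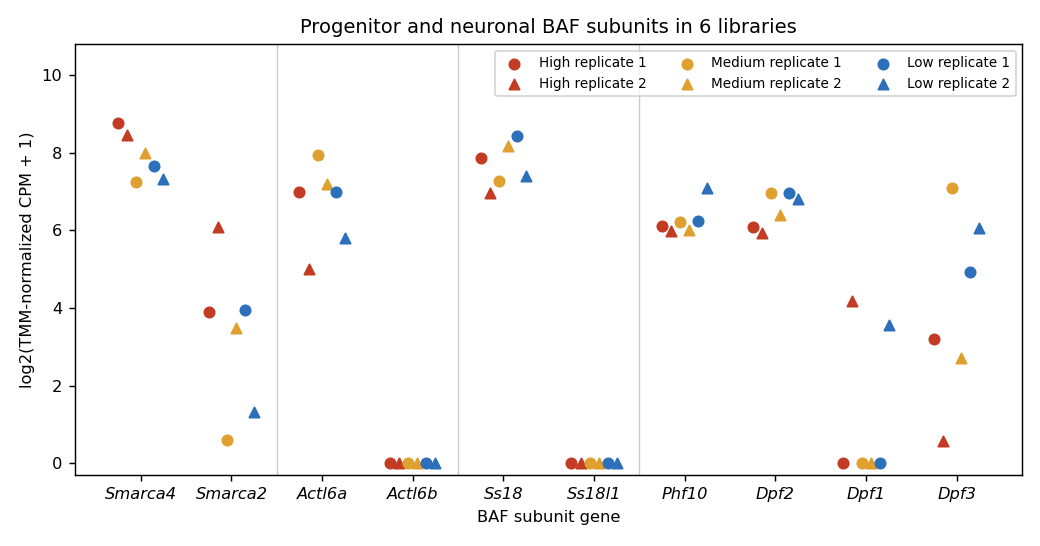
Level of each of the 10 BAF subunit genes in every library, as log2(TMM-normalized CPM + 1), with films by color and replicates by symbol. Smarca4 and the progenitor subunits are present in all 6 libraries, and Actl6b and Ss18l1 lie at 0 in all 6. Smarca2, Dpf1 and Dpf3 scatter between replicates of 1 film, as does Actl6a on High.

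Smarca4, the catalytic engine of the progenitor complex, had 2119 and 1459 counts on “High”, 880 and 1549 on “Medium”, and 1378 and 941 on “Low”. In CPM it stood at 437 and 348 on “High”, at 151 and 254 on “Medium”, and at 199.6 and 158 on “Low”, so that the highest of the 4 latter libraries, Medium replicate 2, remained below the lower “High” library. The group levels were 392 ± 62.6 CPM (SD, n = 2) on “High”, 203 ± 72.9 on “Medium” and 179 ± 29.5 on “Low”. “Medium” and “Low” overlapped. The mean of the 2 lower-conductivity films against “High” gave a log2 fold change of −1.04 ± 0.38 (SE), with an adjusted p of 0.801 from edgeR over 7729 rows, and did not pass. A non-overlapping position below “High” was found in 10.1% of all rows tested, and a position on either side in 18.2%. DESeq2, which called 4.85% of all rows for this contrast, called Smarca4 too (log2 fold change −1.10, adjusted p = 0.0286). The adjusted p of Smarca4 ran from that value to 0.9999 (without High replicate 1) over the 14 alternative fits, and its direction was the same in all of them. For the films taken singly, the log2 fold change was −1.13 for “Low” (unadjusted p = 0.0317, adjusted p = 0.899) and −0.95 for “Medium” (unadjusted p = 0.0613, adjusted p = 0.908) in the same edgeR fit, and both comparisons use the same “High” libraries.

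The share of ribosomal RNA was high in both “High” libraries, as was Smarca4. Within “High” and within “Low” the library with more ribosomal RNA had less Smarca4, and within “Medium” it had more. With the ribosomal rows taken out before normalization, the log2 fold change was −1.05. When TMM factors were left out it was −0.67, while the median of all rows moved from −0.12 to 0.26, so that relative to this median Smarca4 stood at −0.92 and −0.93. The unadjusted p by edgeR rose from 0.0198 to 0.127 in that fit, and was 0.147 without High replicate 1.

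Smarca2, the alternative ATPase, was the rarer of the pair in every library. Its counts were 67 and 282 on “High”, 3 and 62 on “Medium”, and 99 and 9 on “Low”, which is 13.8 and 67.3, 0.515 and 10.2, and 14.3 and 1.51 CPM. High replicate 2 was far above the rest, and the remaining “High” library lay among the others. The log2 fold change of “Medium” and “Low” against “High” was −2.63 ± 2.59 (SE), with an adjusted p of 0.938 by edgeR. It was −1.08 without High replicate 2 and −4.31 without Medium replicate 2. Smarca2 made up 3.06% (95% Wilson interval 2.42 to 3.87) and 16.2% (14.5 to 18.0) of the ATPase counts on “High”, 0.340% (0.116 to 0.994) and 3.85% (3.01 to 4.90) on “Medium”, and 6.70% (5.54 to 8.09) and 0.947% (0.499 to 1.79) on “Low”. The intervals of replicates of the same film do not overlap, so that the spread between libraries exceeds counting error in all 3 films. The share was 9.63 ± 9.29% (SD, n = 2) on “High” and 2.96 ± 2.93% (SD, n = 4) in the lower-conductivity libraries, a difference of −6.67 percentage points (exact two-sided permutation p = 0.400, adjusted p = 0.533 over the 2 shares that could be tested). With 4 libraries against 2 this test cannot go below 0.133. Without High replicate 2 the difference was −0.11 percentage points, so it rests on that library.

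Actl6a and Actl6b are actin-related proteins that bind next to the ATPase, and their exchange is the best known step of the switch. Actl6a had 611 and 130 counts on “High”, 1420 and 879 on “Medium”, and 862 and 328 on “Low”. In CPM these were 126 and 31.0, 244 and 144, and 125 and 55.1, with “Medium” above both other films in each replicate and with “High” and “Low” overlapping. The level was 78.4 ± 67.1 CPM (SD, n = 2) on “High”, 194 ± 70.4 on “Medium” and 90.0 ± 49.4 on “Low”, and the mean of “Medium” and “Low” against “High” was higher by 0.75 ± 0.77 (SE) on the log2 scale (adjusted p = 0.947 by edgeR). This value was 0.07 without High replicate 2 and 2.09 without High replicate 1. Actl6b had 0 counts in all 6 libraries beside 4230 counts of Actl6a, which allows a share of up to 0.0709% of the counts of the pair over all libraries. In the single libraries the limit ran from 0.211% in Medium replicate 1 to 2.31% in High replicate 2, where Actl6a itself was low.

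The promoters of this pair are shown because their RNA stood at opposite ends, present in every library for Actl6a and at 0 in every library for Actl6b. Both are RefSeq windows of 300 bases around the annotated start on the build GRCr8, printed 5′ to 3′ on the strand of the gene, and all 10 genes matched 1 such window each. The Actl6a window is chr2:117420481-117420780 (plus strand) and the Actl6b window is chr12:24778102-24778401 (minus strand). Capitals mark CCAAT and GGACAGC, searched on both strands, so that they also read ATTGG and GCTGTCC.
Actl6a: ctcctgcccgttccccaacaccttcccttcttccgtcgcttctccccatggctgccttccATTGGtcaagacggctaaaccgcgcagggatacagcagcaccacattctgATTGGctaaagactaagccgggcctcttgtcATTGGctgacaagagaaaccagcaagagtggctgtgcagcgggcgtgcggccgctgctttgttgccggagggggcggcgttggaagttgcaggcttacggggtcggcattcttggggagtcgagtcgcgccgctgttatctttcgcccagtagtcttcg
Actl6b: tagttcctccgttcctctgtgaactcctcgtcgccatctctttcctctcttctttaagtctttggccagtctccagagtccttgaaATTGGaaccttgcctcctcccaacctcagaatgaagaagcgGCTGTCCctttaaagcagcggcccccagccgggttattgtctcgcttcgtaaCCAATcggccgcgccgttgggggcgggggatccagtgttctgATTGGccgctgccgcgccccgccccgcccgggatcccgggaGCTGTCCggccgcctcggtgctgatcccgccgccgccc
GGACAGC is the core of 1 arm of the RE1 element, the site of the repressor Rest, which is known to hold neuronal genes silent in progenitors. It occurred 2 times in the Actl6b window, 0 times in that of Actl6a, once in that of Ss18 and in none of the other 7, against 6.59% of 33469 rat promoter windows of the same length. The other arm, TTCAGCACC, was in 0 of the 10 windows and in 0.356% of all. CCAAT was present 3 times in both windows shown, in 7 of 10 members and in 37.5% of all windows, and no marked motif overlaps another in the printed windows. The Actl6a window held 22 CpG dinucleotides and that of Actl6b 26, against a median of 7 over all windows, and the 10 genes ranged from 16 in Dpf3 to 54 in Phf10. The GC box GGGCGG was in 8 of the 10 windows and in 33.1% of all, and the TATA box TATAAA in 0 of the 10 and in 14.2% of all. A match of these letters is a description of the sequence and does not show that a factor binds.

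Ss18 and its neuronal counterpart Ss18l1 repeated the pattern of the Actl6 pair. Ss18, which helps tether the complex to chromatin, had 1131 and 520 counts on “High”, 900 and 1739 on “Medium”, and 2356 and 994 on “Low”. The levels of 233 and 124 CPM, 154 and 285 CPM, and 341 and 167 CPM overlapped between the films, and replicates differed by 0.90, 0.88 and 1.03 in log2(CPM + 1) on “High”, “Medium” and “Low”. The group levels were 179 ± 77.0 CPM (SD, n = 2), 220 ± 92.5 and 254 ± 123, and the log2 fold change against “High” was 0.40 ± 0.51 (SE), with an adjusted p of 0.991 by edgeR. It was 0.02 without High replicate 2 and 0.93 without High replicate 1. Ss18l1, a calcium-responsive coactivator in neurons, had 0 counts in all 6 libraries beside 7640 counts of Ss18. This allows up to 0.0393% of the counts of the pair over all libraries and between 0.127% and 0.577% in single ones.

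The PHD finger subunits read modified histone tails and help place the complex. Phf10, a progenitor form needed for proliferation, had 331 and 259 counts on “High”, 429 and 388 on “Medium”, and 516 and 801 on “Low”. At 68.2 and 61.8, 73.6 and 63.6, and 74.8 and 134 CPM its replicates differed by 0.14, 0.21 and 0.84 in log2(CPM + 1), where the medians over all rows tested were 1.01, 1.5 and 1.03, with Low replicate 2 above the others and an overlap between “High” and Medium replicate 2. Its log2 fold change was 0.38 ± 0.86 (SE), with an adjusted p of 0.9997 by edgeR. It was 0.14 without Low replicate 2, 0.56 without Low replicate 1 and 0.77 without TMM factors.

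Dpf2, the PHD finger subunit found in most tissues, had 324 and 251 counts on “High”, 714 and 510 on “Medium”, and 855 and 664 on “Low”. The levels were 66.8 and 59.9 CPM on “High”, 123 and 83.6 on “Medium”, and 124 and 111 on “Low”, so that all 4 lower-conductivity libraries were above both “High” libraries. A position above “High” of this kind was held by 8.06% of all rows tested. The group levels were 63.3 ± 4.86 CPM (SD, n = 2) on “High”, 103 ± 27.5 on “Medium” and 118 ± 8.78 on “Low”. The log2 fold change was 0.80 ± 0.75 (SE), with an unadjusted p of 0.312 and an adjusted p of 0.925 by edgeR, and the difference did not pass. Replicates of Dpf2 differed by 0.15, 0.55 and 0.15 in log2(CPM + 1) on “High”, “Medium” and “Low”.

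Dpf3, a neuronal form that is also known from heart and muscle, had 40 and 2 counts on “High”, 793 and 34 on “Medium”, and 201 and 393 on “Low”. This is 8.24 and 0.477 CPM, 136 and 5.58 CPM, and 29.1 and 66.0 CPM. Both “Low” libraries and Medium replicate 1 stood above “High”, but Medium replicate 2 lay between the 2 “High” libraries, and the mean of “Medium” (70.8 ± 92.3 CPM, SD, n = 2) was set by replicate 1. The log2 fold change was 3.73 ± 2.21 (SE), with an adjusted p of 0.801 by edgeR, and it was 1.90 without Medium replicate 1 and 6.86 without High replicate 1. The unadjusted p was 0.122 with edgeR and under 0.05 with DESeq2, which did not call Dpf3 after adjustment either. For “Low” alone against “High” the log2 fold change was 3.44 ± 2.28 (SE), with an adjusted p of 0.899 by edgeR.

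Dpf1 had 71 counts in High replicate 2 and 64 in Low replicate 2, and 0 in the other 4 libraries, both “Medium” libraries included. Since a film at 0 leaves the fitted fold to the prior count, its fold cannot be interpreted. Its edgeR test for “Medium” and “Low” against “High” had an adjusted p of 0.826.

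Over the whole PHD finger set, the neuronal Dpf1 and Dpf3 took 5.76% (95% Wilson interval 4.25 to 7.74) and 12.5% (10.1 to 15.5) of the counts on “High”, 41.0% (38.8 to 43.2) and 3.65% (2.62 to 5.05) on “Medium”, and 12.8% (11.2 to 14.5) and 23.8% (21.9 to 25.7) on “Low”. “Medium” held both the highest and the lowest share of the 6 libraries. The mean share was 9.14 ± 4.78% (SD, n = 2) on “High” and 20.3 ± 16.0% (SD, n = 4) in the lower-conductivity libraries, a difference of 11.2 percentage points (exact two-sided permutation p = 0.533, adjusted p = 0.533, where the smallest p possible is 0.133). The 2 “High” shares lay inside the range of the other 4. Without Medium replicate 1 the difference was 4.27 percentage points.

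**Figure D2:**
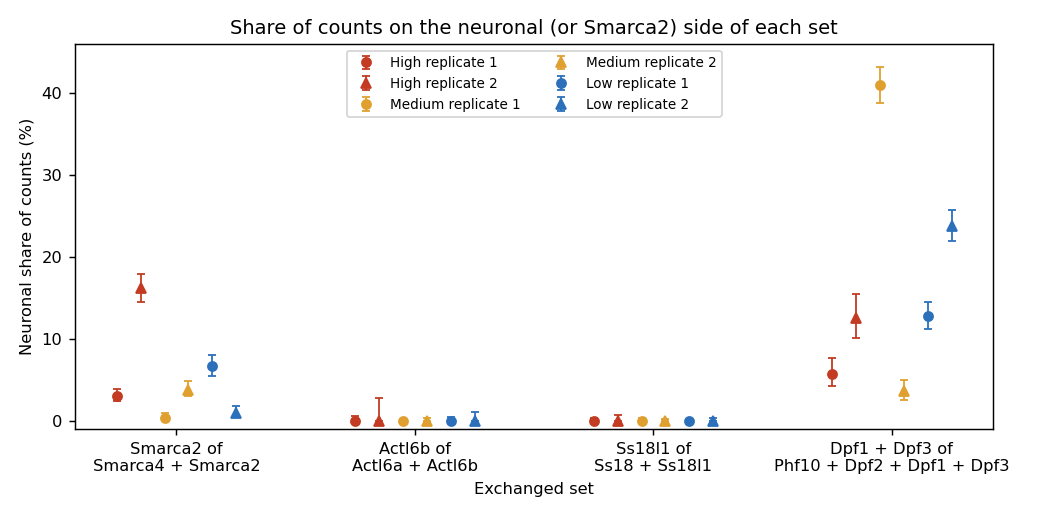
Share of the counts of each exchanged set that falls on Smarca2 or on the neuronal subunits, in percent, for each library, with 95% Wilson intervals as bars. Actl6b and Ss18l1 have a share of 0 in all 6 libraries, and the share of Dpf1 and Dpf3 ranges from 3.65% to 41.0% within the Medium film.

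Summed over the progenitor subunits Actl6a, Phf10, Dpf2 and Ss18, the level was 494 and 277 CPM on “High”, 594 and 577 on “Medium”, and 665 and 468 on “Low”. Low replicate 2 lay below High replicate 1, so the films overlapped. Summed over the neuronal subunits Actl6b, Dpf1, Dpf3 and Ss18l1 it was 8.24 and 17.4 CPM on “High”, 136 and 5.58 on “Medium”, and 29.1 and 76.7 on “Low”, which also overlapped. The progenitor sum exceeded the neuronal sum in each of the 6 libraries.

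For the mean of “Medium” and “Low” against “High”, edgeR called 0 of the 8 BAF genes tested, beside 0.129% of all 7729 rows, and 1 gene, Smarca4, had an unadjusted p under 0.05, beside 5.5% of all rows. DESeq2 called 1 of the 8 (4.85% of all rows), with 2, Smarca4 and Dpf3, at an unadjusted p under 0.05 (15.2% of all rows). limma-voom called 0 of the 8 (0.298% of all rows), with 1, Smarca4, at an unadjusted p under 0.05 (9.33% of all rows). For “Low” against “High” edgeR also called 0 of 8 (0.0518% of all rows), with 1 at an unadjusted p under 0.05 (4.27% of all rows). For “Medium” against “High” it called 0 of 8 (0.0129% of all rows), with 0 at an unadjusted p under 0.05 (4.04%). For “Low” against “Medium” it called 0 of 8 (0% of all rows), with 0 at an unadjusted p under 0.05 (1.51%), and DESeq2 called 0 of the 8 in the last 3 contrasts, where it called 300, 307 and 116 of all 7729 rows. At an unadjusted p under 0.05 DESeq2 had Smarca4 for “Low” against “High”, Smarca4 and Dpf3 for “Medium” against “High”, and 0 of the 8 for “Low” against “Medium”, beside 1100, 1123 and 807 of all rows. Of the 8, 5 had a positive and 3 a negative log2 fold change against “High”, with a median of 0.39 beside −0.12 over all rows, and of 0.39 beside −0.10 with every library raised to 3 counts. The 3 negative values include that of Dpf1, whose fold cannot be interpreted. Without High replicate 2 the median was 0.19 beside 0.13 over all rows, without High replicate 1 it was 0.67 beside 0.32, and without TMM factors 0.77 beside 0.26. The 4 lower-conductivity libraries did not overlap “High” for 2 of the 8 (25%, beside 18.2% of all rows), Smarca4 below and Dpf2 above. Without TMM factors Phf10 also lay above “High”, which made 3 of the 8, beside 20.1% of all rows (14% above and 6.15% below). The spread is wide in these data, with a common dispersion of 2.04, a biological coefficient of variation of 1.43.

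**Figure D3:**
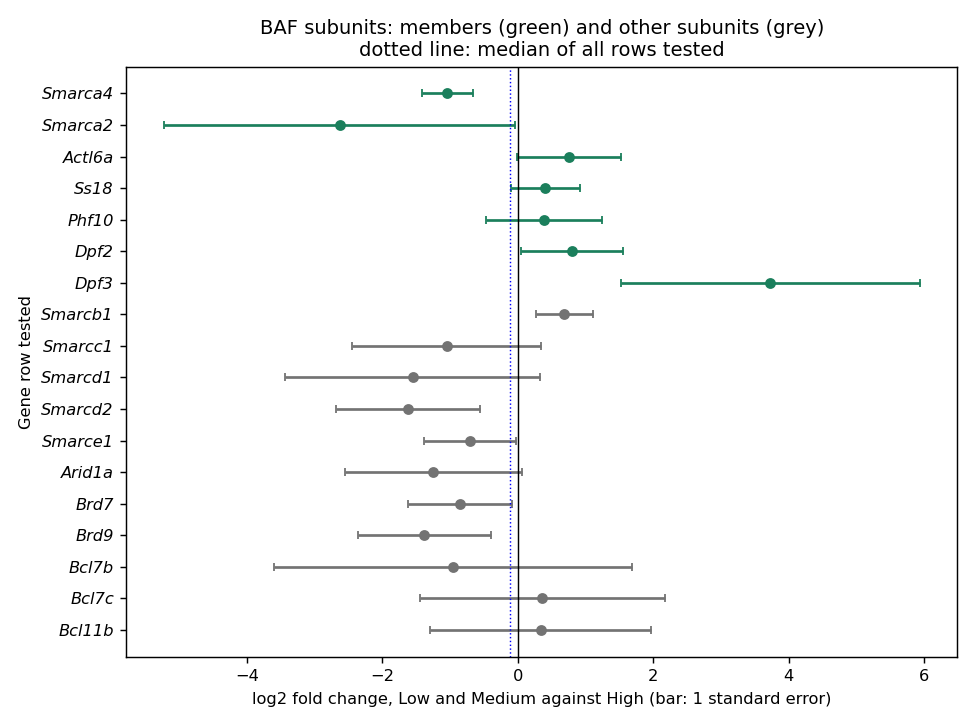
Log2 fold change of the mean of Medium and Low against High from edgeR, with 1 standard error, for the BAF members (green) and the other BAF subunits (grey) that were tested, without Dpf1 and Gltscr1, for which both libraries of a film had 0 counts. Smarca4 is at −1.04 with the narrowest bar of the members, and the bars of Smarca2 and Dpf3 are more than 2 units long to each side.

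The rest of the complex was read from a list of 20 further BAF subunits, 15 of which were matched in the tables, 2 of them under the older symbols Gltscr1 and Gltscr1l. A total of 12 rows were tested, of which 4 had a positive and 8 a negative log2 fold change, with a median of −0.91 that was −0.22 without High replicate 2, −0.51 without Medium replicate 1, −1.77 without Medium replicate 2 and −0.49 without TMM factors. The 4 positive values include that of Gltscr1, which had 0 counts on “High”, so that its fold rests on the prior count. Of the 12, 0 passed an adjusted or an unadjusted p of 0.05 by edgeR. DESeq2 called 0 of them, with 2, Smarcb1 and Smarcd2, at an unadjusted p under 0.05, a share of 16.7% beside 15.2% of all rows. Smarcb1, a core subunit and the most abundant of the list, was at 158 and 125 CPM on “High”, 180.0 and 180.4 on “Medium”, and 254 and 323 on “Low”. All 4 lower-conductivity libraries were above “High” (log2 fold change 0.69 ± 0.43, SE, adjusted p = 0.801 by edgeR). A second row of Smarcb1 had 0 counts throughout.

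Smarcd2, an accessory subunit that links the complex to transcription factors, was at 95.6 and 120.0 CPM on “High”, 25.7 and 70.7 on “Medium”, and 34.6 and 16.1 on “Low”, below “High” in all 4 libraries (log2 fold change −1.62 ± 1.06, SE, adjusted p = 0.801 by edgeR). These 2 were the non-overlapping rows among the 12 (16.7%, beside 18.2% of all rows). Smarce1, which binds DNA through an HMG box, was at 114 and 305 CPM on “High”, 43.1 and 162 on “Medium”, and 230 and 91.6 on “Low”, with films that overlapped. Brd7, a bromodomain subunit of the PBAF form, followed Smarcb1 and Smarce1 in mean level and had 495 and 906, 1155 and 252, and 299 and 510 counts. Medium replicate 1 was at or near 0 for several subunits that other libraries held at 77 counts or more, with 3 counts of Arid1a, 7 of Smarcc1 and 0 of Smarcd1, Bcl7b and Bcl7c, although it had the highest count of Actl6a and Dpf3 of the 6. The library with the fewest detected rows is the same, and its part in these counts was not tested. The subunits Bcl11a (0 counts), Smarcd3 (9 counts in Low replicate 1) and Gltscr1l (10 counts in High replicate 2) were at or near 0.

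**Figure D4:**
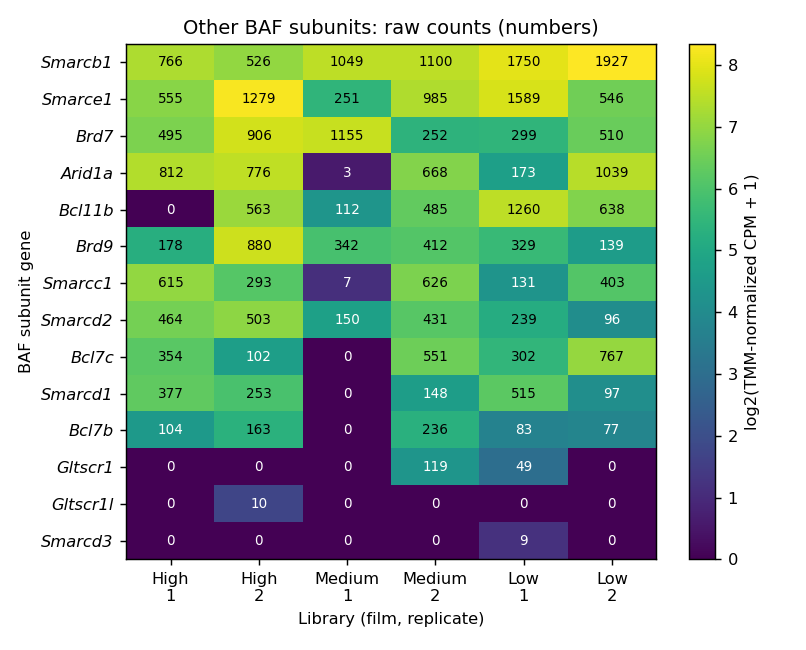
Raw counts (numbers) and log2(TMM-normalized CPM + 1) (color) of the other BAF subunits with at least 1 count, for each library. The Medium replicate 1 column holds 3 counts for Arid1a, 7 for Smarcc1 and 0 for Smarcd1, Bcl7b and Bcl7c, whereas Smarcb1 is high in all 6 libraries.

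Other remodelers, namely ATPases and partners of the CHD, ISWI and INO80 families with the NuRD deacetylases, were listed as 20 genes, of which 15 were matched and 13 tested. Of these 5 had a positive and 8 a negative log2 fold change, with a median of −0.10, a split that turned to 8 positive and 5 negative without TMM factors. The median was −0.64 without High replicate 2, −0.59 without Low replicate 2, −0.39 without Medium replicate 1, −0.36 without Medium replicate 2, −0.18 without Low replicate 1 and −0.0096 without High replicate 1. For “Medium” and “Low” against “High”, 0 of the 13 passed an adjusted or unadjusted p of 0.05 by edgeR. DESeq2 called 0 there, with 1 (Baz1b) at an unadjusted p under 0.05 (15.2% of all rows). For “Low” against “High”, Baz1b had a log2 fold change of −1.35 with an unadjusted p of 0.0246 and an adjusted p of 0.899 by edgeR. DESeq2 called Baz1b in that contrast (log2 fold change −1.41, adjusted p = 0.0130), beside 300 of all 7729 rows. The 3 most abundant were all NuRD subunits. Rbbp7, a histone-binding protein, was at 503 ± 105 CPM (SD, n = 6) over all libraries, Mta1 at 484 ± 129 and Hdac2 at 281 ± 66.3. Smarca4 was above Hdac2 on “High” (392 against 239.6 CPM) and below it in the lower-conductivity libraries (191 against 301 CPM). Smarca5, the ISWI ATPase, was below Smarca4 in 5 libraries, with 82.4 and 200.4 CPM on “High”, 87.7 and 134 on “Medium” and 83.4 in Low replicate 1, and above it in Low replicate 2 (242 against 158 CPM).

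Regulators of the exchange were few. Rest had 424 and 765 counts on “High”, 0 and 642 on “Medium”, and 92 and 0 on “Low”, so that 1 replicate of “Medium” and 1 of “Low” had none (log2 fold change −2.85 ± 1.99, SE, adjusted p = 0.809 by edgeR). Actl6b and Ss18l1 were at 0 in these 2 libraries as in the others, and a link to Rest was not tested. Ptbp1, a splicing repressor of the neuronal program, was the most abundant regulator with a mean of 129.9 CPM, and Rcor1, the corepressor that works with Rest, followed with 91.1 CPM. Of the 6 rows tested for the 6 listed genes (Rcor2 has 2), 6 had a negative log2 fold change, with a median of −1.78, and 0 passed an adjusted or unadjusted p of 0.05 by edgeR or DESeq2. Without High replicate 2 the split was 2 positive and 4 negative with a median of −0.22, and 1 was positive with a replicate block. The median was −2.71 without High replicate 1, −3.91 without Medium replicate 2 and −3.41 without Low replicate 2. The number called by edgeR was 1 without Medium replicate 2, where 242 of all 8678 rows were called, and 1 without Low replicate 1, where 61 of all 8859 rows were. Neurod1, a proneural factor, had 0 counts in all libraries.

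Markers bore on the labelled cell type. Of 12 progenitor markers 9 were tested, of which 6 had a positive and 3 a negative log2 fold change, led by Vim at 2742 CPM on average, and Hes5, Msi1 and Prom1 had 0 counts in every library. Their summed level was 3643 and 3313 CPM on “High”, 5705 and 5696 on “Medium”, and 4844 and 6504 on “Low”, above “High” in all 4 lower-conductivity libraries, where Smarca4 was below. Sox2, Nes, Sox9 and Vim, at log2 fold changes of 1.24, 1.64, 0.97 and 0.58, had unadjusted p-values of 8.9e-04, 0.00318, 0.00509 and 0.0169, and 0 of the 9 passed an adjusted p of 0.05 by edgeR (0.129% of all rows), while DESeq2 called 4 (4.85% of all rows). With no filter, edgeR called 1 of the 9 for “Medium” and “Low” against “High”, beside 68 of all 9566 rows. Hes1, Fabp7 and Notch1 had log2 fold changes of −0.82, −0.60 and −0.25, and Vim made up most of the summed level. Neuronal markers summed to 151 and 43.9 CPM on “High”, 180.4 and 314 on “Medium”, and 358 and 193 on “Low”, which also put the 4 libraries above “High”. Taken singly, 0 of the 5 tested lay above “High” in this way and 0 below, beside 8.06% and 10.1% of all rows. The most abundant neuronal gene was Gap43 at 87.7 CPM, and 10 of the 12 had a count in some library. All 5 tested had a positive log2 fold change for “Medium” and “Low” against “High” (median 2.10, with Tubb3 and Map2 at 0 on “High”). The filter shaped this split, since Tubb3 and Map2 passed it through their counts on “Low”. Stmn2, Elavl3 and Snap25, seen on “High” alone, were filtered out. With no filter the split was 7 positive and 3 negative, and without Low replicate 1 it was 6 and 4. The median was 1.10 without High replicate 2, 3.51 without High replicate 1 and 4.60 with a replicate block. For this contrast 0 of the 5 passed an adjusted or unadjusted p of 0.05 by edgeR or DESeq2. For “Low” against “High” DESeq2 gave unadjusted p-values of 0.0434 for Tubb3 and 0.0317 for Map2, beside 1100 of all rows under 0.05. Rbfox3 and Nefl were at 0 throughout, as were the progenitor markers Hes5, Msi1 and Prom1. Tubb3 had 96 and 72 counts on “Low” and 0 in the other 4 libraries, Stmn2 (60 counts) and Elavl3 (100 counts) were seen in High replicate 1 alone and Snap25 (52 counts) in High replicate 2 alone, and Dpf1 and Dpf3 did not follow that division. The part of these markers in the levels of the BAF genes was not tested.

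Of the other lists, astrocyte markers summed to between 51.4 and 178 CPM, led by Gja1, with Aqp4 and Aldh1l1 at 0, and oligodendrocyte lineage markers to between 153 and 402 CPM, led by Olig1, with Sox10 at 0. Microglial markers reached at most 7.10 CPM, with 4 of 6 at 0. Meningeal and vascular markers reached 392 CPM in Medium replicate 2, all from Col1a1 and Col3a1, and at most 27.7 CPM elsewhere, with 5 of 7 at 0. Medium replicate 2 was also the library with the second highest Ss18 and the highest Smarca4 outside “High”, and whether the 2 are connected was not tested.

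The rows most like Smarca4, the BAF gene with the highest mean over the 6 libraries, were sought by the Pearson correlation of log2(CPM + 1) over the 6 libraries among 4314 rows with a mean log2 CPM of at least 5. The 3 closest were Mtfr1l (r = 0.982), Abcf1 (r = 0.981) and Hmgb1 (r = 0.980), given as a description over 6 libraries that share films, depth and normalization. Abcf1, a protein of translation initiation, was at 385 and 316 CPM on “High”, 173 and 278 on “Medium”, and 213 and 206 on “Low”. Like Smarca4 it was lowest in Medium replicate 1, and Medium replicate 2 was the library nearest to “High”.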

How the data were processed

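The authors made QuantSeq 3′ libraries, aligned the single-end reads with Bowtie2 to rn6 (build and tools as in the submitters' processing notes) and deposited whole-number counts per gene symbol from unique and multiple alignments with bedtools, without normalization; the annotation is not given in the sources used here. Reads shared by near-identical paralogs can therefore count for more than 1 gene. The methods name a Ribospin kit for RNA isolation and the labels Trizol.

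From the counts, rows were filtered with filterByExpr (7729 of 17048 rows, of which repeated symbols were kept apart), normalized with TMM and tested with edgeR 4.0.16 in R 4.3.3 by the quasi-likelihood test, with 1 fit of 3 film means on all 6 libraries and Benjamini-Hochberg adjustment over all rows (threshold 0.05). DESeq2 1.42.0, limma 3.58.1, other normalizations and filters, fewer libraries and a replicate block were alternatives, and the fit was tested on simulated data. Shares were compared with exact permutation tests in scipy 1.17.1. The tables held 0 columns of other samples.

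The members, the lists of other genes and the tests were chosen with earlier results of these data known. All 10 members are named. By rule, the 3 genes with the highest mean CPM are named for other BAF subunits, other remodelers, regulators and progenitor markers. In these lists, genes with an unadjusted p under 0.05 by edgeR for “Medium” and “Low” against “High” are also named. Of the neuronal, astrocyte and oligodendrocyte lineage markers the most abundant gene is named. Other genes were chosen after their values were seen. Listed genes without a row were not analysed here. The 3 rows most like the most abundant member were taken by correlation. Levels of films are given as mean ± SD over libraries, in CPM with TMM factors.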

Additional observations from a re-analysis of the deposited data

How the results depend on the processing

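The 8 log2 fold changes of BAF genes for “Medium” and “Low” against “High” were recomputed under 14 alternatives, and 110 of the 112 values kept their direction and their side of an adjusted p of 0.05. The 112 include the values of Dpf1, whose fold cannot be interpreted. DESeq2 was the exception for Smarca4, where it brought the number of BAF genes called from 0 to 1, and Dpf1 ran from −8.56 to 3.998 with 1 library left out. Both ends are set by the prior count, since Dpf1 had 0 counts in all remaining “Medium” and “Low” libraries without Low replicate 2 and in “High” without High replicate 2. The number of BAF genes called was 0 in all fits without 1 library and all other alternatives. For the same contrast the number of other BAF subunits called was 0 to 1 without 1 library (Bcl11b without High replicate 2 and Arid1a without Medium replicate 2).

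The number of all rows called, which sets the background, was not stable. For “Medium” and “Low” against “High” it was 10, and it was 375 with DESeq2, 23 with limma-voom, 68 with no filter, 56 with a mean count of at least 10, 57 with a replicate block and 34 to 242 without 1 library. For “Low” against “High” it was 4, and it was 300 with DESeq2, 16 with limma-voom, 34 with no filter, 30 with a mean count of at least 10, 30 with a replicate block, 2 without ribosomal RNA rows, 0 with library sizes alone or with only the groups compared, and 19 to 65 without 1 library. For “Medium” against “High” it was 1, and it was 307, 14, 48, 40 and 39 under DESeq2, limma-voom, no filter, the mean count and the replicate block, 0 with library sizes alone or only the groups compared, and 11 to 275 without 1 library. For “Low” against “Medium” it was 0, and it was 116 with DESeq2, 5 with no filter and 0 to 194 without 1 library. The highest number without 1 library was reached without Medium replicate 2 except for “Low” against “High”, where it was reached without Low replicate 2. Leaving out a library also lets more rows through the filter. The causes were not tested.

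Same-numbered libraries of different films had deviations from the film means that correlated at 0.00342 to 0.00733, which gave no sign that the numbers pair the libraries. With 2 libraries per film the deviations mirror each other, so these values cannot exclude a shared culture or run. The replicate block changed the call of 0 BAF genes. Without 1 library, the share of Smarca2 among the ATPases differed between the lower-conductivity films and “High” by −13.2 to −0.11 percentage points, and that of Dpf1 and Dpf3 in their set by 4.27 to 16.7. Smarca4 and the 4 progenitor subunits had at least 130 counts in each library, whereas Dpf1 had 0 counts in 4 libraries, Dpf3 had 2 counts in 1 library, and Smarca2 had 3 and 9 counts in its lowest libraries. The non-overlap of films without TMM factors and the medians of the lists under the alternatives were chosen after seeing the data.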
